A study of Saccharomyces cerevisiae with 71 samples.

Results

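The tRNAs for alanine, glycine and cysteine were followed through 6 depletion experiments in yeast, none of which removed alanine, glycine or cysteine from the medium. Every probe whose name begins with Ala, Gly or Cys was taken, which gave 6 of the 41 tRNA probes on the arrays: Ala-5, Ala-6, Gly-6, Gly-7, Gly-8 and Cys-3. Charging, the fraction of a tRNA that carries its amino acid, was measured in an isogenic gcn2Δ strain of Saccharomyces cerevisiae, in which URA3 replaces the GCN2 gene, and in the wild-type strain, both prototrophic. Cells grown in complete synthetic medium were moved to medium without Trp, without Trp, Phe and Tyr, without Arg, without Arg but with ornithine added, without His, or without Leu, and were collected after 15 and 60 min, or after 5, 45 and 120 min for Leu. Their reference was the culture of the same strain and experiment labelled time 0, or labelled 5 min in the Leu experiment. There was 1 depleted sample per strain, medium and time, and each was counted as a culture. This gave 26 cultures, 13 of each strain, on 46 charging arrays. The labels do not say whether samples of different times came from separate flasks. For 20 cultures both dye orientations were available, as paired arrays, and for 6 a single array. Paired arrays carry the same RNA and were counted as 1 sample. No p-value here measures a spread between replicate cultures. In comparisons with the reference, between strains and between media, it measures how far the strain difference varied from medium to medium. In the time comparison it measures the spread of the change over strain-by-medium pairs. For a single culture it measures the spread between the comparison cultures, and for isoacceptors that between experiments.

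Alanyl-, glycyl- and cysteinyl-tRNA synthetases attach these amino acids to the 3' end of their tRNAs. Several tRNAs with different anticodons, called isoacceptors, can accept the same amino acid, and they need not be used or charged alike. Gcn2p is the protein kinase that is activated by uncharged tRNA and slows general translation while allowing translation of GCN4, an activator of genes of amino acid biosynthesis. Ala-5 and Ala-6 are the alanine probes, Gly-6, Gly-7 and Gly-8 the glycine probes, and Cys-3 the only cysteine probe. The files name a probe by amino acid and number, and the anticodons of these 6 were not used here.

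Values are given as log2 of the deposited ratio, centred on the median of the array. A value of 0 therefore means that the charged share of a tRNA, relative to the reference, was that of the median probe on the array, and a change common to all tRNAs cannot be seen. The reference itself adds no measured spread, because its 22 charging arrays were deposited as 1 throughout. The SD over the 41 probes of an array had a median of 0.27. It reached 0.96 on the array with the widest spread. The Trp arrays with total tRNA in Cy5 likely hold the inverse ratio and were turned, while the direction of the Leu arrays with total tRNA in Cy5 is not settled and they were used as deposited. Results that rest on either are named below.

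Most values of the Ala, Gly and Cys probes were small. Of the 156 culture values of the 6 probes, 134 (85.9%) lay within 0.25 of 0 on the log2 scale. This compares with 77.3% of the 598 values of the other 23 probes for amino acids that stayed in every medium. The median SD of a probe over the cultures was alike, 0.179 for the 6 probes and 0.181 for those 23. The largest SD was 0.26 for the 6 probes and 0.67 for those 23. Changes of 0.5 or more made up 5 of the 156 values (3.21%), against 6.35% in those other probes. These 5 values were Ala-5 in the gcn2Δ culture at 60 min without Trp and in the wild-type culture at 60 min without His, Gly-7 in the gcn2Δ culture at 60 min without Trp, Gly-6 in the gcn2Δ culture at 60 min without Arg but with ornithine, and Cys-3 in the wild-type culture at 60 min without Trp, Phe and Tyr. The Gly-6 value was above 0 and the other 4 were below it, although both values without Trp turn to above 0 with the Cy5 arrays as deposited.

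**Figure D1:**
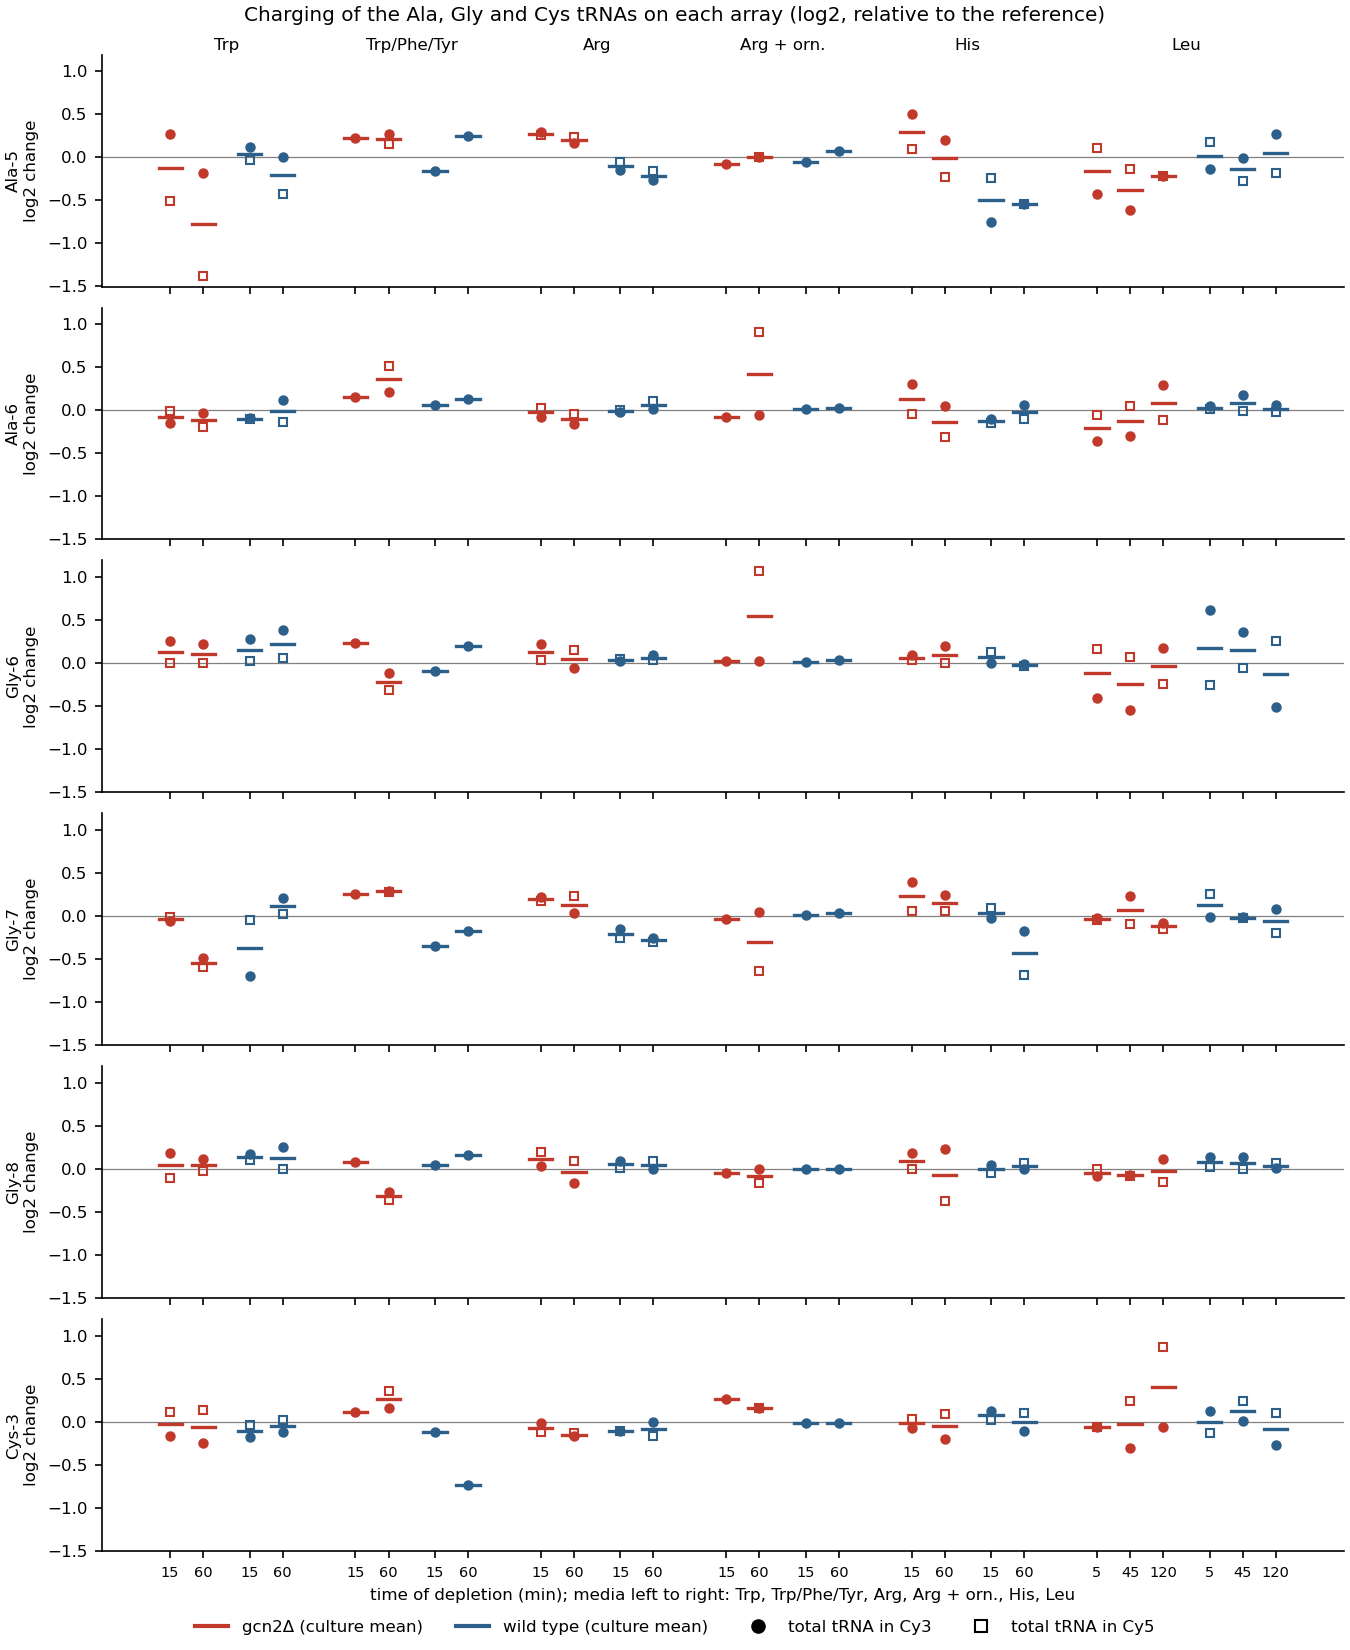
Log2 change in charging relative to the reference (vertical axes) of each of the 6 probes, array by array for the 46 arrays, by medium, strain and minutes of depletion (horizontal axis). Circles are arrays with total tRNA in Cy3, squares arrays with total tRNA in Cy5, and short lines culture means. Gly-8 stays within -0.38 and 0.26 on all arrays, while Ala-5 reaches -1.38 on 1 array.

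Gly-8 varied least. Its SD over the 26 cultures was 0.095 on the log2 scale, the smallest of all 41 probes, and it ranked 2 from the lowest with either the Trp or the Leu Cy5 arrays in the other direction. Its values were between -0.32 and 0.11 in the gcn2Δ cultures (median -0.04) and between 0.00 and 0.16 in the wild-type cultures (median 0.04), so that the 2 strains overlapped. The other SDs were 0.15 for Ala-6, 0.16 for Gly-6, 0.20 for Cys-3, 0.22 for Gly-7 and 0.26 for Ala-5, which ranked 11, 15, 24, 25 and 27 from the lowest.

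The difference between paired arrays gives the measurement error of these values. The SD of that difference over the 20 pairs, divided by 2, is the error of a culture mean and was 0.096 for Gly-8, 0.14 for Cys-3, 0.14 for Gly-7, 0.16 for Ala-6, 0.22 for Ala-5 and 0.23 for Gly-6. Over the same 20 cultures the SD of the culture means was 0.10 for Gly-8, 0.14 for Cys-3 and 0.16 for Ala-6, about the size of that error, and 0.17 for Gly-6, below it. It was wider than the error for Ala-5 (0.28) and Gly-7 (0.23). This order depends on the array directions: with the Trp Cy5 arrays as deposited, the SD and the error of Gly-7 were both 0.20, and with the Leu Cy5 arrays turned, Gly-6 had an SD of 0.23 and an error of 0.17. Gly-7 had the same sign on both arrays in 15 of the 20 pairs, but in 11 with the Trp Cy5 arrays as deposited. Over all probes the median was 11 of 20, or 10 with the Trp Cy5 arrays as deposited. Ala-6, Gly-6, Gly-8 and Cys-3 each had 9, but Gly-6 had 15 with the Leu Cy5 arrays turned.

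**Figure D2:**
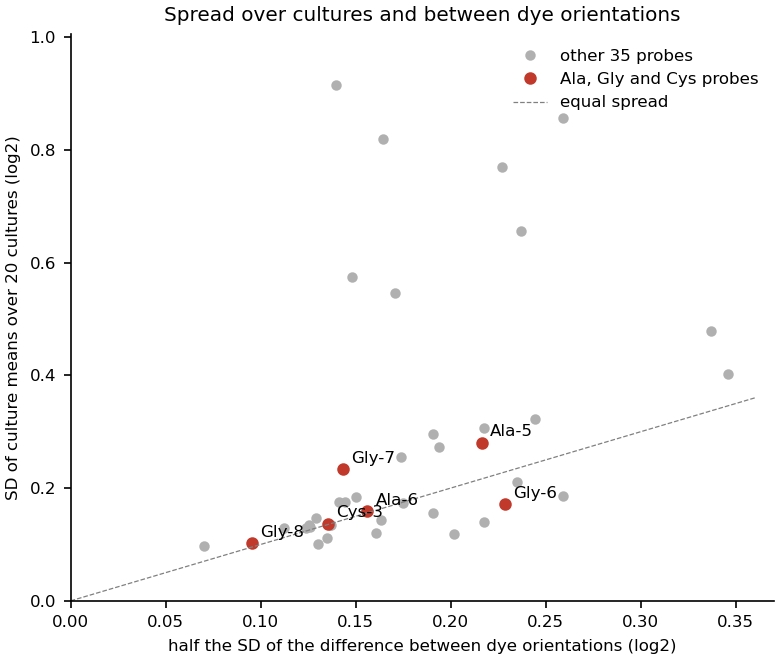
SD of the culture means of the log2 change in charging over the 20 cultures with paired arrays (vertical axis) against the SD of the difference between paired arrays divided by 2 (horizontal axis) for the 41 probes. Of the 6 labelled probes, Ala-5 and Gly-7 lie above the dashed line of equal spread and Gly-6 below it, with the array directions used here. With the Trp Cy5 arrays as deposited Gly-7 would lie on the line.

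Taken over the 12 strain-by-medium means, none of the 6 probes differed from the reference in charging by limma with Benjamini-Hochberg adjustment over the 41 probes. The estimates were -0.07 for Ala-5 (95% interval -0.24 to 0.09), 0.02 for Ala-6 (-0.06 to 0.10), 0.07 for Gly-6 (-0.01 to 0.15), -0.06 for Gly-7 (-0.20 to 0.09), 0.02 for Gly-8 (-0.05 to 0.08) and -0.02 for Cys-3 (-0.14 to 0.09). The smallest adjusted p of the 6 was 0.54, for Gly-6. The same test called 0% of the 41 probes, and 2 of them, neither an Ala, Gly nor Cys probe, had an unadjusted p below 0.05.

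The strains were compared with medium as a block, which asks whether charging of these tRNAs during depletion depended on Gcn2p. No probe passed, 0 of 6 against 0% of the 41 probes, and 1 of the 41 had an unadjusted p below 0.05. The difference, gcn2Δ minus wild type, was 0.15 ± 0.12 for Gly-7, 0.15 ± 0.098 for Cys-3, 0.10 ± 0.14 for Ala-5, 0.02 ± 0.065 for Ala-6, 0.01 ± 0.071 for Gly-6 and -0.08 ± 0.055 for Gly-8 (SE, 6 media), with an adjusted p of 0.82 or more for each. The 95% intervals were widest for Ala-5 (-0.23 to 0.43) and Gly-7 (-0.13 to 0.44), and Gly-8 was bounded between -0.21 and 0.05.

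**Figure D3:**
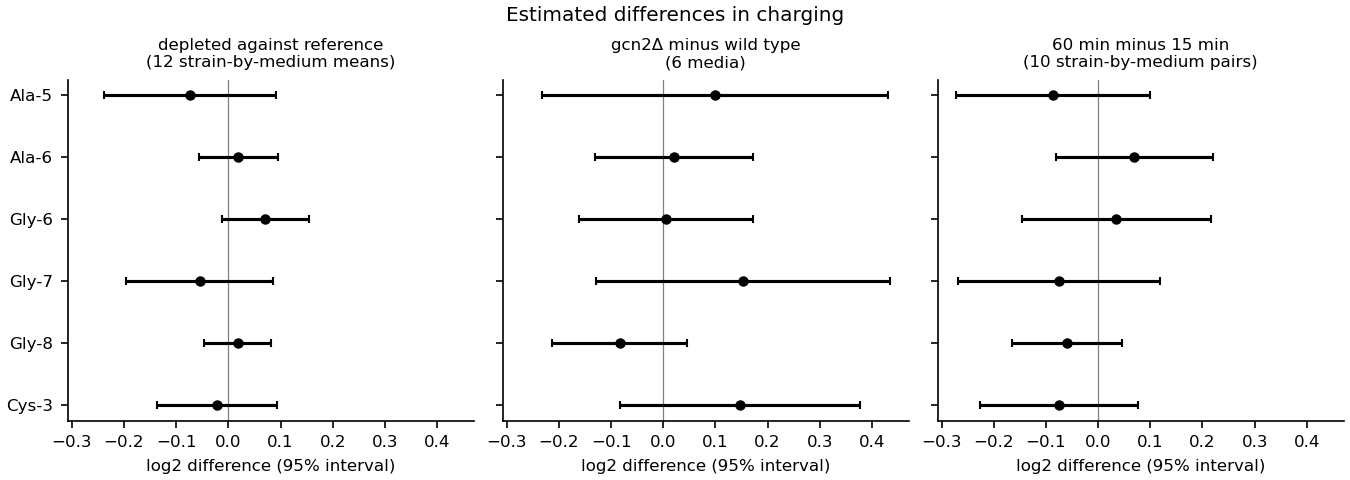
Estimated log2 differences in charging of the 6 probes with 95% intervals, for depleted cultures against the reference, for gcn2Δ minus wild type and for 60 min minus 15 min. All 18 intervals include 0, and those of Ala-5 and Gly-7 are the widest in the strain comparison.

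Gly-8 was lower in gcn2Δ than in wild type in each of the 6 media. The differences were small, from -0.22 without Trp, Phe and Tyr to -0.01 without His. A difference below 0 in all 6 media was found in 2 of the 41 probes (4.88%), and a difference of one sign in all 6 media in 3 of the 41 (7.32%). It did not hold in every setting: Gly-8 was lower in 5 of 6 media with Cy3 arrays only, where it was higher without His (0.18), in 5 of 6 with the Trp or the Leu Cy5 arrays in the other direction, and in 4 of 6 when arrays were centred on the probes of amino acids that stayed in every medium. Of the 6 probes, only Gly-8 had one sign throughout as reported here. Ala-5, Ala-6, Gly-6 and Gly-7 were higher in gcn2Δ in 3 media and lower in 3, and Cys-3 was higher in 4 and lower in 2. These counts shift with the directions: with the Trp Cy5 arrays as deposited Ala-5 and Gly-7 were higher in 4 media and Cys-3 in 3, and with the Leu Cy5 arrays turned Gly-7 was higher in 4 and Cys-3 in 3.

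Within single media the strains stood apart for 3 of the 6 probes. The arrays of gcn2Δ all lay on one side of 0 and those of wild type all on the other in 5 of the 36 combinations of these probes with a medium, against 12 of 246 combinations over all probes (4.88%). This difference within a medium was not tested, since it rests on cultures of 1 experiment that share a reference within each strain.

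Without Arg, Ala-5 was 0.29 and 0.26 at 15 min and 0.17 and 0.24 at 60 min on the gcn2Δ arrays, against -0.15 and -0.06 at 15 min and -0.26 and -0.16 at 60 min on the wild-type arrays. Gly-7 did likewise, with 0.22, 0.18, 0.03 and 0.23 on the gcn2Δ arrays against -0.15, -0.26, -0.26 and -0.30 on the wild-type arrays. These combinations were picked for opposite signs in the 2 strains, so the arrays of the strains could not overlap. The 4 arrays of a strain are paired arrays of its cultures at 15 and 60 min. The strain means differed by 0.40 for Ala-5 and by 0.41 for Gly-7. In this medium 7 of the 41 probes (17.1%) were of opposite sign in the 2 strains.

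Without Trp, Phe and Tyr, Gly-7 was 0.26 at 15 min and 0.29 and 0.28 at 60 min on the gcn2Δ arrays, against -0.35 at 15 min and -0.17 at 60 min on the wild-type arrays. The strain means differed by 0.53. Cys-3 was 0.12 at 15 min and 0.16 and 0.36 at 60 min on the gcn2Δ arrays, against -0.12 at 15 min and -0.74 at 60 min on the wild-type arrays, a difference of 0.61. These were the 2 probes of 41 (4.88%) of opposite sign in this medium.

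Without Arg but with ornithine, Cys-3 was 0.26 at 15 min and 0.16 and 0.15 at 60 min on the gcn2Δ arrays. It was -0.01 at 15 min and -0.02 at 60 min on the wild-type arrays. The difference was 0.22, and 2 of the 41 probes (4.88%) were of opposite sign here. Both wild-type values were near 0, and the wild-type arrays of this experiment had a narrow spread over all probes (SD 0.16 and 0.076).

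**Figure D4:**
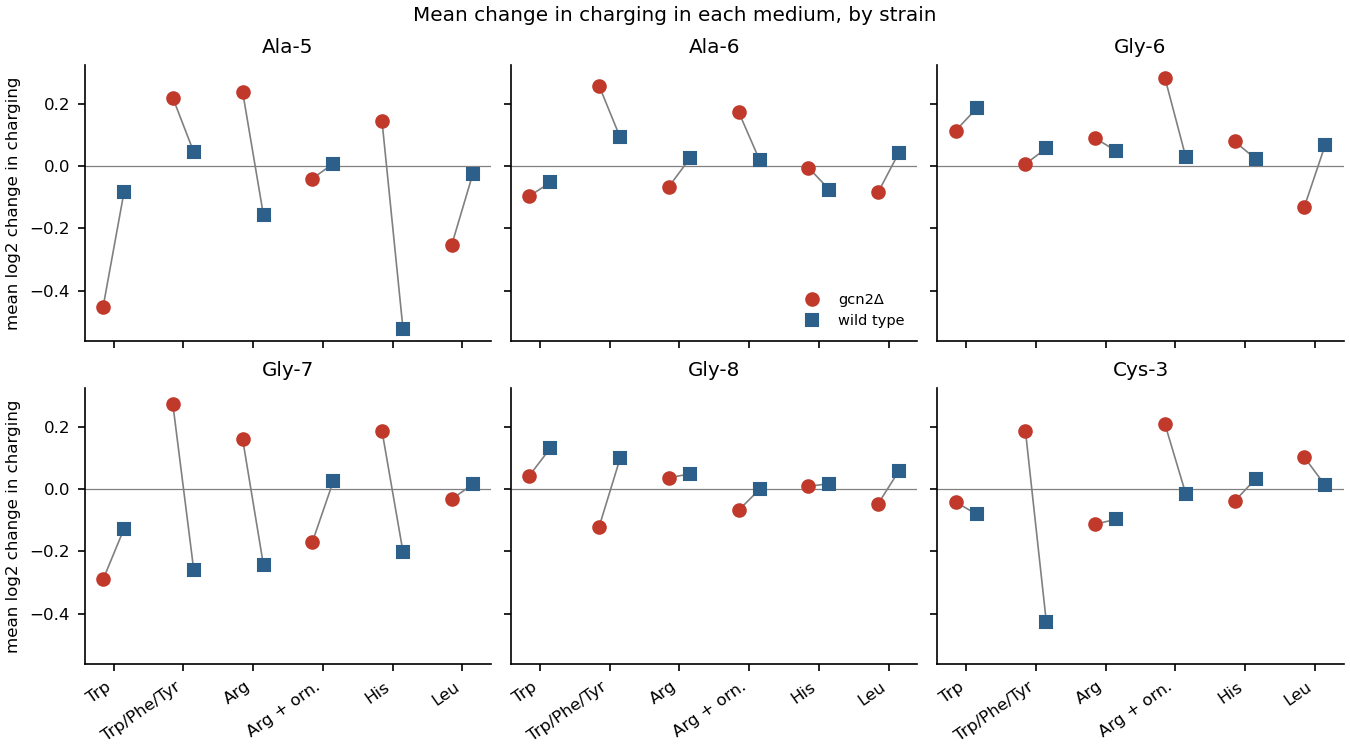
Mean log2 change in charging in each medium for gcn2Δ (circles) and wild type (squares), with a line joining the strains. Gly-7 is higher in gcn2Δ without Arg, without His and without Trp, Phe and Tyr, by 0.39 to 0.53, and Gly-8 is lower in gcn2Δ in all 6 media as plotted, though in 4 to 5 of 6 in 4 other settings.

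Each medium was then set against the other 5, in limma over the strain-by-medium means. Of 36 tests on the 6 probes none passed and none had an unadjusted p below 0.05. Over all 246 tests 0% passed and 10 had an unadjusted p below 0.05. The estimates for the 6 probes were between -0.23, for Ala-5 without Trp, and 0.25, for Ala-5 without Trp, Phe and Tyr. With the Trp Cy5 arrays as deposited, Ala-5 without Trp was instead the highest, at 0.36, and Ala-5 without His the lowest, at -0.26.

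Ala-5 had opposite directions in the 2 strains without His, although not on each array. It was 0.50 and 0.10 at 15 min and 0.20 and -0.23 at 60 min on the gcn2Δ arrays, against -0.75 and -0.24 at 15 min and -0.55 and -0.55 at 60 min on the wild-type arrays. All 4 gcn2Δ arrays were above all 4 wild-type arrays, although the lowest gcn2Δ array (-0.23) nearly met the highest wild-type array (-0.24), and the strain means were 0.14 in gcn2Δ and -0.52 in wild type. When the 15-min wild-type culture alone was set against the 8 cultures it was compared with, the difference was -0.50 ± 0.18 (SE), which did not pass (adjusted p = 0.40 by limma).

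In the gcn2Δ culture at 60 min without Trp, Ala-5 and Gly-7 were both low. Ala-5 was -0.18 on the Cy3 array and -1.38 on the turned Cy5 array, and Gly-7 was -0.49 and -0.60. The mean of Ala-5 corresponds to a 1.72-fold lower relative charging and that of Gly-7 to a 1.46-fold lower one. The paired arrays were thus far apart for Ala-5 and close for Gly-7. Against 6 other cultures, Ala-5 differed by -0.70 ± 0.26 (SE), which did not pass (adjusted p = 0.35 by limma). Both values rest on the turned direction of the Cy5 array, which as deposited correlated with its Cy3 partner at -0.90 over the probes. With that array as deposited the culture means would be 0.60 for Ala-5 and 0.05 for Gly-7. Ala-6, the other alanine probe, was -0.03 and -0.19 in the same culture.

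The abundance arrays of this strain and medium, which compare tRNA amounts after 60 min without Trp with those of the reference, cover the same condition. After centring, the mean ratio was 0.99 for Ala-5, 1.05 for Ala-6, 0.98 for Gly-6, 1.00 for Gly-7, 0.99 for Gly-8 and 1.06 for Cys-3. All 41 probes spanned 0.81 to 1.28. The deposited ratios in the 2 dye orientations were 0.978 and 1.01 for Ala-5 and 0.95 and 1.06 for Gly-7. They were 0.94 and 1.02 for Gly-6 and 0.91 and 1.08 for Gly-8, while Ala-6 and Cys-3 were above 1 in both. Both arrays were averaged as deposited, and whether they run in the same direction was not checked. As averaged, no Ala, Gly or Cys probe was near either end of the range in abundance, with ranks from 16 to 33 of 41. If 1 array held the inverse ratio, these means and ranks would not hold. Abundance was measured in this 1 culture with no test.

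Of the single cultures, only 1 of 156 tests on the 6 probes passed, against 17 of 1066 tests over all probes (1.59%). The comparison set for a culture held 6, 8 or 10 cultures from media that kept the amino acids it lacked, and the culture was assumed to vary like them. The call was Cys-3 in the wild-type culture at 60 min without Trp, Phe and Tyr. It stood at -0.74 there, from 1 Cy3 array with a deposited ratio of 0.599, against -0.15 to 0.16 in the 6 comparison cultures (median -0.04). The difference was -0.71 ± 0.13 (SE, adjusted p = 0.031 by limma), a 1.64-fold lower relative charging than in the comparison cultures, and 2 of the 41 probes (4.88%) were called in that culture.

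The Cys-3 decrease had no second array. The SD over the 41 probes was 0.43 on its only array, against a median of 0.27 over the arrays. Cys-3 ranked 5 from the lowest of the 41 probes there. Most of the comparison cultures were means of paired arrays, so their spread may understate that of a single array. At 15 min the same strain and medium gave -0.12, and the gcn2Δ culture at 60 min gave 0.26. The call was lost when any of 5 of the 6 comparison cultures was left out (adjusted p between 0.060 and 0.10), and with Cy3 arrays alone (0.068), while the difference stayed between -0.74 and -0.68.

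Gly-6 and Ala-6 had their highest values in the gcn2Δ culture at 60 min without Arg but with ornithine, at 0.55 and 0.43, and both rested on 1 array. The Cy5 array gave 1.07 for Gly-6, 0.91 for Ala-6 and -0.64 for Gly-7. Its Cy3 partner gave 0.03, -0.06 and 0.04. The SD over the 41 probes was 0.91 on that Cy5 array. Gly-6 differed from the 6 comparison cultures by 0.48 ± 0.19 (SE) and did not pass (adjusted p = 0.32 by limma).

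Without Trp, Phe and Tyr at 60 min, the gcn2Δ culture had the lowest Gly-8 value of all, -0.27 and -0.36 on its arrays, and Ala-6 at 0.21 and 0.51. Gly-8 differed from the comparison cultures by -0.30 ± 0.10 (SE) and did not pass (adjusted p = 0.33 by limma). When the Cy5 array that stood apart was left out, a setting chosen after seeing the data, Gly-8 (-0.31) and Ala-6 (0.40) were both called in this culture (adjusted p = 0.043 by limma for each), beside Cys-3 in the wild-type culture (0.0092).

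Time was tested in the 10 strain-by-medium pairs with 15 and 60 min. No probe passed, 0 of 6 against 0% of the 41 probes, of which 1 had an unadjusted p below 0.05. The differences, 60 min minus 15 min, were -0.09 ± 0.084 for Ala-5, 0.07 ± 0.068 for Ala-6, 0.03 ± 0.082 for Gly-6, -0.08 ± 0.087 for Gly-7, -0.06 ± 0.048 for Gly-8 and -0.07 ± 0.068 for Cys-3 (SE). Ala-5 and Cys-3 were lower at 60 min in 7 of the 10 pairs and Ala-6 higher in 7 of 10. With the Trp Cy5 arrays as deposited, Ala-5 was lower in 5 of 10 and its estimate was 0.04. The change with time, gcn2Δ minus wild type, also passed for none of the 6 and for 0% of the 41, with 0 at an unadjusted p below 0.05. It was -0.22 ± 0.17 for Ala-5, -0.21 ± 0.17 for Gly-7 and -0.17 ± 0.095 for Gly-8 (SE), and -0.12, -0.08 and -0.21 for the same probes with the Trp Cy5 arrays as deposited. Without the Trp experiment Gly-7 was -0.01.

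The Leu experiment had other times. Ala-5 was -0.16, -0.38 and -0.22 at 5, 45 and 120 min in gcn2Δ, against 0.02, -0.14 and 0.05 in wild type. Gly-6 was -0.12, -0.24 and -0.03 in gcn2Δ, against 0.18, 0.15 and -0.13 in wild type. The paired arrays of wild type at 5 min gave 0.61 and -0.25 for Gly-6 and those at 120 min -0.51 and 0.26, so that the orientations had opposite signs as deposited and the same sign with the Cy5 arrays turned. Cys-3 had its highest value, 0.40, in gcn2Δ at 120 min, from -0.06 and 0.87 on the paired arrays. With the Cy5 arrays of this experiment turned, Gly-6 would be -0.29, -0.31 and 0.21 at 5, 45 and 120 min in gcn2Δ, against 0.43, 0.21 and -0.39 in wild type, and Cys-3 in gcn2Δ at 120 min would be -0.46.

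Isoacceptors of one amino acid were compared within cultures, in 4 pairs, by an exact two-sided sign-flip permutation test over the 6 experiments, whose smallest possible p is 0.0312. Ala-5 was lower than Ala-6 by a mean of -0.09 ± 0.090 (SD, n = 6 experiments), in 5 of 6 experiments. Gly-6 was higher than Gly-7 by 0.13 ± 0.14 and higher than Gly-8 by 0.05 ± 0.075, each in 5 of 6 experiments, and Gly-7 was lower than Gly-8 (-0.07 ± 0.11) in 5 of 6. The exact p was 0.0625 for Gly-6 against Gly-7 and 0.0938 for each of the other 3, and 0.0938 for all 4 after adjustment over the 4 pairs, so that none passed. Ala-5 minus Ala-6 was -0.01 with the Trp Cy5 arrays as deposited, below 0 in 4 of 6 experiments. With Cy3 arrays only it was -0.04, but above 0 in 4 of 6 experiments. Gly-6 minus Gly-8 was 0.03 without the Cy5 array that stood apart.

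**Figure D5:**
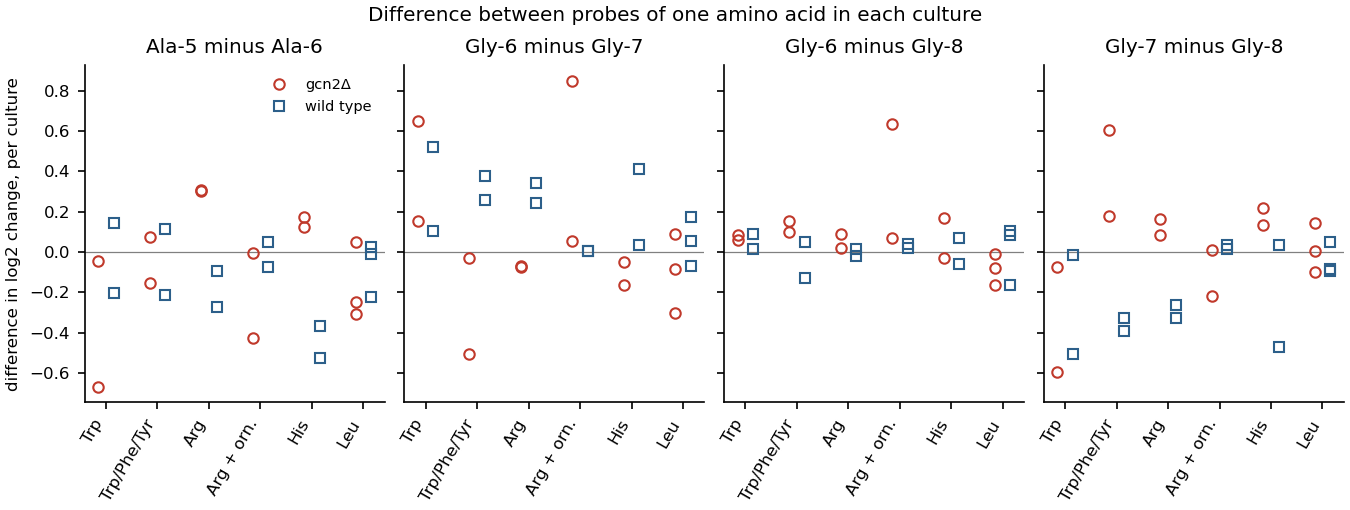
Difference in log2 change in charging between probes of one amino acid in each of the 26 cultures, by medium, for gcn2Δ (circles) and wild type (squares). Differences of both signs occur for each of the 4 pairs, and the differences of Gly-6 and Gly-8 lie nearest to 0 apart from 1 gcn2Δ culture at 0.63.

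No isoacceptor difference passed between the strains. Gly-7 minus Gly-8 was higher in gcn2Δ by 0.24 ± 0.34 and Gly-6 minus Gly-7 lower (-0.15 ± 0.37), with adjusted p of 0.44 and 0.50 by the exact permutation test (SD, n = 6 experiments). For Ala-5 minus Ala-6 the difference between strains was 0.08 ± 0.38 and for Gly-6 minus Gly-8 it was 0.09 ± 0.14 (adjusted p = 0.66 and 0.44 by the exact permutation test). With time, over 5 experiments, Gly-6 minus Gly-8 was higher at 60 min than at 15 min in all 5, by a mean of 0.09 ± 0.11 (SD), at the smallest p that 5 experiments allow in the exact permutation test (0.0625, adjusted p = 0.25). Without the Cy5 array that stood apart it was 0.03 ± 0.029 (SD), higher at 60 min in 4 of 5 (adjusted p = 0.50 by the exact permutation test). The other 3 pairs had adjusted p of 0.25, 0.42 and 0.88 by the same exact test.

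Probes of one amino acid did not always vary together over the 26 cultures, which share references and arrays. With the array directions used here, the error of a culture mean was about the spread for Ala-6, Gly-8 and Cys-3 and above it for Gly-6. This limits what a low r with any of these probes can show. As a description, Pearson's r was 0.41 for Ala-5 with Ala-6, 0.41 for Gly-6 with Gly-8, -0.13 for Gly-6 with Gly-7 and -0.25 for Gly-7 with Gly-8. Without the 2 cultures farthest from the median of the first-named probe, r became 0.40, 0.71, 0.07 and -0.25. Among probes of different amino acids, Ala-5 and Gly-7 had 0.59 (0.35 without 2 cultures) and Gly-8 and Cys-3 had -0.52 (-0.44). Over all 820 pairs of the 41 probes, r had a median of -0.03 and a range from the 5th to the 95th percentile of -0.57 to 0.65.

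For each of the 6 probes the most similar other probes over the 26 cultures were found by Pearson's r. Leu-13 and Leu-14 came nearest to Ala-5 (0.76 and 0.65), and Leu-14 and Met-5 to Ala-6 (0.68 and 0.49). Val-8 and Thr-8 came nearest to both Gly-6 (0.66 and 0.62) and Gly-8 (0.37 and 0.35). Leu-13 and Trp-3 came nearest to Gly-7 (0.47 each), and Tyr-3 and Asp-3 to Cys-3 (0.52 and 0.45). Without 2 cultures, r fell to 0.18 for Gly-7 with Trp-3, to 0.26 for Cys-3 with Tyr-3 and to 0.47 for Gly-6 with Val-8. It rose to 0.69 for Gly-8 with Val-8 and stayed at 0.75 for Ala-5 with Leu-13. With the Trp Cy5 arrays as deposited, r was -0.01 for Gly-7 with Trp-3, 0.51 for Ala-5 with Leu-13 and 0.47 for Ala-5 with Gly-7. With the Leu Cy5 arrays turned, r was 0.30 for Ala-6 with Met-5.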

How the data were processed

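Charging of tRNA was measured on 68 two-colour arrays and abundance on 3. The values deposited by the authors are linear ratios for 41 probes. A charging ratio divides a culture's charged over total tRNA by that of its matched reference array (strain, experiment and dyes alike). An abundance ratio was read, in both dye orientations, as the culture's tRNA amount divided by that of the reference. The median ratio was between 0.995 and 1.01 on every depleted charging array. The scanner and the background correction are not given in the sources used here, and the number of cultures limits the precision. No value was missing, and 0 columns belonged to no sample.

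Ratios were log2-transformed with no pseudocount, the Trp arrays with total tRNA in Cy5 were turned (as deposited they correlated with their partners at -0.90 to -0.22), arrays were centred on the median and the arrays of a culture averaged. As deposited, Leu partners correlated at -0.48 to 0.22. Differences were fitted over all 41 probes in limma (lmFit and eBayes, version 3.58.1, R 4.3.3), with Benjamini-Hochberg adjustment and a threshold of 0.05, and the procedure was tested on simulated data. Isoacceptor pairs were tested by exact sign-flip permutation in scipy. A probe's nearest probes were the 2 with the highest Pearson's r. Alternatives were the centring, 1 dye orientation, the array directions, robust moderation, other comparison cultures, the last time point, and leaving out each experiment or comparison culture. The probes and lists were chosen with earlier results of these data known. No condition had replicate cultures.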

Additional observations from a re-analysis of the deposited data

Results flagged for a closer look

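Between strains, 5 differences stand out because every array of gcn2Δ lay on one side of 0 and every array of wild type on the other within a medium. As gcn2Δ minus wild type they were 0.40 for Ala-5 and 0.41 for Gly-7 without Arg, 0.53 for Gly-7 and 0.61 for Cys-3 without Trp, Phe and Tyr, and 0.22 for Cys-3 without Arg but with ornithine. The differences were not tested within a medium. Without Trp, Phe and Tyr the wild-type side rests on 2 arrays, and that of Cys-3 is mostly the single array at 60 min.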

How the results depend on the processing

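None of the 6 probes was called in the mean, strain, medium, time and time-by-strain comparisons, and no isoacceptor pair passed, under any alternative run. Recomputed single values were counted for the mean, strain, time and time-by-strain comparisons and the isoacceptor pairs. Of these, 430 kept their side of the threshold and either kept their sign or moved by no more than the error. Another 6 changed sign by more than the error. Among them was Ala-5, which became 0.02 over the media and 0.04 over time with the Trp Cy5 arrays as deposited. The medium values were not in this count, and some of them changed sign too. Ala-5 without Trp went from -0.23 to 0.36 with the Trp Cy5 arrays as deposited. Cys-3 without Leu went from 0.10 to -0.11 with the Leu Cy5 arrays turned. The Cys-3 difference at 60 min without Trp, Phe and Tyr was -0.68 with Cy3 arrays only (adjusted p = 0.068 by limma), and between -0.74 and -0.68 (adjusted p 0.018 to 0.10) with each comparison culture left out, where it was called in 1 of 6 cases. With Cy3 arrays only, Gly-6 in gcn2Δ at 45 min without Leu was called instead (-0.65, adjusted p = 0.041 by limma). Without the Cy5 array that stood apart, chosen after seeing the data, the calls on the 6 probes numbered 3. The turned Trp and Leu arrays and the deposited centring could not change the Cys-3 value, since its cultures do not include them or were already centred. The distance of each signal from the background was not analysed here. No fit with the replicate number as a block was made, since that number only names the dye orientation of an array, while the comparisons of strains, times and isoacceptors were paired by medium, strain or culture.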
